A study of Mus musculus with 11 samples.

Results

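Anergic CD4 T cells were compared with effector CD4 T cells (Teff) by ATAC-seq, an assay in which the Tn5 transposase cuts accessible chromatin and so reports how open each stretch is. The comparison rests on 6 of the 11 libraries of the series, the 3 labelled anergic and the 3 labelled Teff, taken by their labels. All libraries came from mice of the genotype wildtype C57BL/6 Foxp3-GFP polyclonal, from mixed spleen and lymph node, freshly isolated and without treatment, with 50000 cells captured per library. The age and sex of the mice are not given in the sources used here. Both gates were CD44high and FOXP3–. Anergic cells were also CD73high, FR4high and NRP1+, and Teff cells were CD73low and FR4low. The other 5 libraries, 2 of naive cells (CD44low) and 3 of Treg cells (FOXP3+ CD25+), entered the statistical fit and are quoted as reference levels. Whether the replicates came from different mice is not given in the labels; p-values below therefore reflect only how much these samples vary, and part of that may be technical. RNA-seq that the series also describes was not analysed here.

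Anergy is a state in which a T cell that has met its antigen without adequate co-stimulation persists but no longer proliferates or makes interleukin-2 on a second encounter. Signalling through calcium and NFAT without its AP-1 partner is a known route into this state, and CD73, an enzyme that makes adenosine, and FR4, a folate receptor family protein, mark such cells among CD44high CD4 T cells. Effector cells of the same CD44high pool carry the programmes of helper lineages: Th1 with interferon gamma and cytotoxic genes, Th2 with interleukin-4 and interleukin-13, and Th17 with RORα and related receptors. The title of the series names BATF, an AP-1 family factor, and BIM, the death-promoting protein encoded by Bcl2l11.

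The deposited table gives 1 signal value for each of 38509 consensus peaks in each library, and 38493 peaks passed a filter on low values. Values below are this deposited signal, a read count per peak multiplied by a factor for each library. Reads in peaks came to 21.5, 68.8 and 54.99 M for anergic replicates 1 to 3 and to 50.9, 44.3 and 20.9 M for Teff replicates 1 to 3, so each group held 1 shallower library. A peak was called different where limma gave a Benjamini-Hochberg adjusted p under 0.05 over all tested peaks. Fold changes are anergic over Teff on the log2(value + 1) scale, with their standard error, and each peak was given to the gene whose RefSeq start site lay closest. A change in a bulk library can come from fewer cells of a kind or from less open chromatin per cell, and these cannot be told apart here. In each gene below the peak described is the one with the smallest adjusted p, unless another is named.

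The sequences at the centre of 8 of the peaks described below show letters whose shares in risen and fallen regions are given later in the account. Each is 200 bases of GRCm38 on the + strand, overlaps no annotated exon, and was chosen from the named peaks after their values were seen. In the first set, from peaks higher in anergic cells, capitals mark TGANTCA, the site of AP-1 factors such as JUN, FOS and BATF, and TGGAAA or its reverse complement TTTCCA, the core bound by NFAT. They lie in an intron 235 kb from the start of Hhat (chr1:192536525-192536724), upstream of the integrin gene Itgav (chr2:83700781-83700980), upstream of Tshz2 (chr2:169589729-169589928) and upstream of Ctla4 (chr1:60902592-60902791).
Hhat: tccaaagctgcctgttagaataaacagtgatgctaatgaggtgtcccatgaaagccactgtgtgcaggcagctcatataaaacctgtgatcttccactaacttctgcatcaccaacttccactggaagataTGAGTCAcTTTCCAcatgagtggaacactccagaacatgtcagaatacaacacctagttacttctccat
Itgav: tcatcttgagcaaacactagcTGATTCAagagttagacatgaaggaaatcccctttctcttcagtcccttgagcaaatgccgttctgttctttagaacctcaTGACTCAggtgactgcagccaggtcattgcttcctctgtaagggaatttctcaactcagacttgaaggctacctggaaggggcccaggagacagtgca
Tshz2: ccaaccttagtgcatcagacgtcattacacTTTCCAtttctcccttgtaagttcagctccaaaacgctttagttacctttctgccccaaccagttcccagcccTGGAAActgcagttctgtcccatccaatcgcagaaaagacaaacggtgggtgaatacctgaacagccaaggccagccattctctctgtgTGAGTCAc
Ctla4: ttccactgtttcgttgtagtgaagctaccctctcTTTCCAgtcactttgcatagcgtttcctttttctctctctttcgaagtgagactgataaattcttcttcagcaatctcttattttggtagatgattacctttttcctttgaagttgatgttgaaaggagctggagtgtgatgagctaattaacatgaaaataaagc
The Hhat stretch holds the AP-1 letters and the NFAT core 1 base apart. The Itgav stretch holds 2 AP-1 matches, the Tshz2 stretch 1 AP-1 match and 2 NFAT cores, and the Ctla4 stretch 1 NFAT core with no AP-1 match.

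The second set comes from peaks lower in anergic cells, and capitals mark AGGTGTGA, the T-box site of factors such as T-bet, with AGATAAG, the site of GATA factors, in an intron of Gcnt2 (chr13:40924010-40924209), and TGTGGTT, the RUNX site, at a peak 19.4 kb from the start of Calca (chr7:114616830-114617029). They also mark the T-box letters in an intronic peak of Bcl2l11 (chr2:128153295-128153494), and the AP-1, T-box and ETS (AGGAAGT) letters at a peak upstream of Batf (chr12:85660980-85661179). Matches on the other strand appear as their reverse complement.
Gcnt2: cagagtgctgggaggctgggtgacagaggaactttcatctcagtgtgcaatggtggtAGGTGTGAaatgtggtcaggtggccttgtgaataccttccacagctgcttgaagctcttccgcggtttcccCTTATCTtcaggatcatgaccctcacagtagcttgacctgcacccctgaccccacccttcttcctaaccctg
Calca: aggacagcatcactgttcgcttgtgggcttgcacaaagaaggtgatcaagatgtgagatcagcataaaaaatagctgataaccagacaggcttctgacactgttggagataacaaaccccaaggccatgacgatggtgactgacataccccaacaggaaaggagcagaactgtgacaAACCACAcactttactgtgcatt
Bcl2l11: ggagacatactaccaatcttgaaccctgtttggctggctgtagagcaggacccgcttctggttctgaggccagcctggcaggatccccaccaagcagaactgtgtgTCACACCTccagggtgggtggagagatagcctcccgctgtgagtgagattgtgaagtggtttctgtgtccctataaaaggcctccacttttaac
Batf: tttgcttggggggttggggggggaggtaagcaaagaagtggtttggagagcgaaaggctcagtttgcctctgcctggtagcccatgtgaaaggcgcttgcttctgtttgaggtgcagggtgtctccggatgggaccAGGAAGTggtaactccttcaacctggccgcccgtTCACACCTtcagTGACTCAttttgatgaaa
These 2 sets illustrate single peaks, and the shares of all distal peaks that hold each motif are given further below.

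Anergic and Teff chromatin differed at 12612 of 38493 tested peaks (32.8%), 6133 higher (15.9%) and 6479 lower (16.8%) in anergic cells. The counts were close to balanced, but the sizes were not. The median log2 fold change was 1.19 among higher calls and -0.98 among lower calls. At least 2-fold differences numbered 3667 higher (9.53% of tested peaks) and 3129 lower (8.13%), at least 4-fold differences 1469 and 639, at least 8-fold differences 416 and 111, and at least 16-fold differences 76 and 14. All 3 anergic values lay above all 3 Teff values at 5955 of the 6133 higher calls (97.1%), and below them at 6067 of the 6479 lower calls (93.6%). Over all tested peaks, called or not, the 6 values separated without overlap at 43.5%, so separation alone is common in these data.

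**Figure D1:**
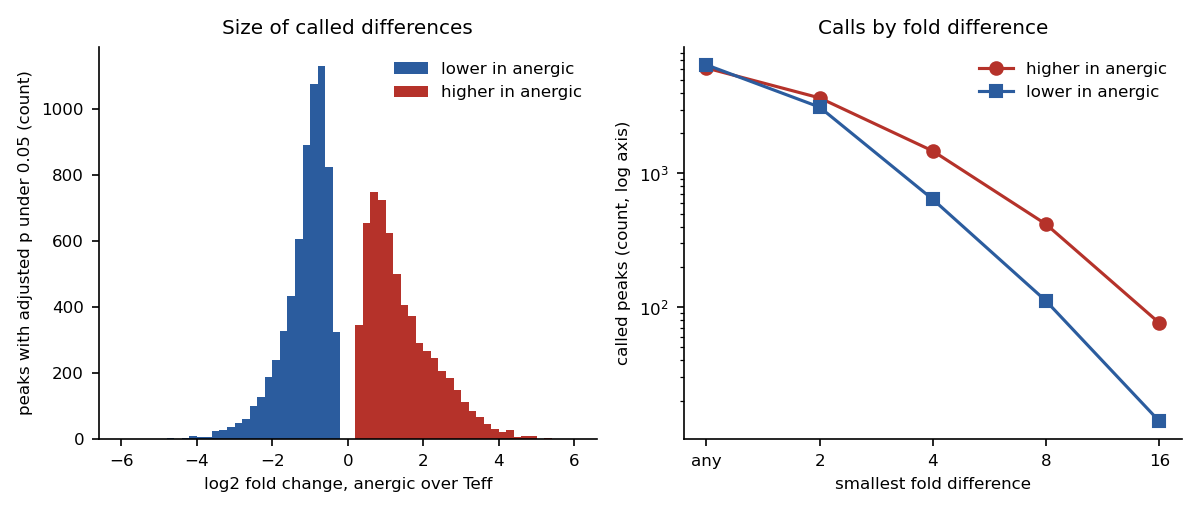
Left, the number of called peaks (y axis) by log2 fold change of anergic over Teff (x axis), lower in blue and higher in red. Right, the number of called peaks on a log axis against the smallest fold difference required: the 2 directions start near 6133 and 6479 and part to 76 higher and 14 lower at 16-fold.

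Differences grew with distance from genes. Promoter peaks, within 1000 bases of a start site, differed at 2046 of 12762 (16%; 7.92% higher and 8.11% lower), and distal peaks at 10561 of 25664 (41.2%; 19.9% higher and 21.2% lower). Within 100 bases of a start site 7.17% were higher and 7.49% lower. Beyond 100 kb, 558 of 1618 peaks were higher (34.5%) and 304 lower (18.8%), and from 50 to 100 kb 26.5% were higher and 22.5% lower. From 1 to 50 kb, lower calls were the more frequent in each of the 3 distance classes. Of 779 peaks on the X chromosome, 114 were higher (14.6%) and 53 lower (6.80%), with 21.4% called. Over all tested peaks 15.9% were higher and 16.8% lower, with 32.8% called.

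The sorting markers came first as a check of the labels, and they are not independent of the gate. Nt5e, which encodes CD73, read 534, 638 and 604 in the anergic and 119.8, 118 and 165 in the Teff libraries in an intron 5.03 kb inside the gene (chr9:88332303-88332968; log2 fold change 2.15 ± 0.22, adjusted p = 1.65e-07). The FR4 gene Izumo1r read 1741, 2556 and 2514 against 831, 1089 and 1295 at its promoter (1.08 ± 0.17), and the Nrp1 promoter read 600.2, 686 and 720.04 against 332, 358 and 373 (0.91 ± 0.14). No group overlapped the other at these 3 peaks. Over all its peaks, Nt5e rose at 4 of 5 and fell at 1 (log2 fold change -1.11). Izumo1r rose at 4 of 7 peaks and Nrp1 at 1 of 3, with no fall called at either gene. No peak of Cd4, the lineage receptor shared by all libraries, passed the test (0 of 4, largest log2 fold change 0.59 ± 0.36, adjusted p = 0.229). Cd44, whose product was high in both gates, was higher at 5 and lower at 1 of 16 peaks. A peak 55.4 kb upstream of Cd44 read 2170.3, 2132 and 1978 in anergic and 553, 441 and 462 in Teff libraries (log2 fold change 2.11 ± 0.16, adjusted p = 4.11e-09), against 38.2 and 60.4 in naive libraries. The single Foxp3 peak, in an intron of the Treg lineage factor, read 184, 114 and 96.1 in anergic and 15.9, 14.0 and 63.3 in Teff libraries (log2 fold change 2.33 ± 0.41, adjusted p = 0.000106), against 1597, 1118 and 1278 in Treg libraries. The anergic Foxp3 values thus lay between the Teff and the Treg values, without overlap with either. Il2ra, the CD25 gene, was lower at 5 of 13 peaks and higher at 1 in anergic cells.

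Receptors that restrain T cells were more accessible in anergic cells. Of 90 peaks of 14 co-inhibitory receptor genes, 51 were higher (56.7%, against 15.9% of all tested peaks) and 4 lower, with a median log2 fold change of 0.68 against -0.00 over all peaks. The 15.9% higher and 16.8% lower over all tested peaks are the reference for each list below. This reference pools promoter peaks (7.92% and 8.11%) with distal peaks (19.9% and 21.2%), and the lists were not split by position. A list share near the distal share is therefore no sign of a lean. Ctla4, which competes with CD28 for its ligands, rose at 17 of 21 peaks. At the peak 6.33 kb upstream of its start, whose central sequence is shown above (chr1:60902398-60902986), the anergic libraries read 779, 730.1 and 687 and the Teff libraries 83.8, 102 and 86.7 (log2 fold change 3.00 ± 0.22, adjusted p = 1.53e-09). Treg libraries read 215, 187 and 292 there and naive libraries 8.94 and 10.8, so the anergic values were the highest of the 4 groups at this peak. Tigit, a receptor for CD155, rose at 9 of 11 peaks and fell at 1. Its intronic peak 2.46 kb from the start read 942, 762 and 631 against 232, 155 and 175 (log2 fold change 2.05 ± 0.22, adjusted p = 2.7e-07). Cd200, the ligand of the inhibitory receptor CD200R, rose at 7 of 8 peaks, with 255, 353 and 362 against 67.8, 71.0 and 80.0 at a peak 62 kb away (2.12 ± 0.24). Further members, chosen after their values were seen, rose at 5 of 8 peaks (Pdcd1, which encodes PD-1), 4 of 7 (Btla) and 3 of 6 (Lag3). Cd160, Cd5 and Pdcd1lg2 had no called peak, and Vsir was lower at 2 of 4 and higher at 1.

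Co-stimulatory receptors moved less uniformly, with 40 of 122 peaks higher (32.8%) and 16 lower (median 0.22). Tnfrsf8, which encodes CD30, rose at 7 of 10 peaks and read 487, 445 and 489 against 173, 195 and 180.01 at a peak 4.38 kb upstream (log2 fold change 1.37 ± 0.17, adjusted p = 1.72e-06). Icos, a CD28 family receptor, rose at 8 of 21 peaks and fell at 2, with 1.85 ± 0.23 at a peak 57.6 kb downstream. Cd2, an adhesion receptor, rose at 6 of 20 and fell at 3, and its most certain difference was a fall from 359.98, 266 and 307 in Teff to 71.3, 84.3 and 103 in anergic libraries (-1.84 ± 0.19, adjusted p = 1.38e-07). Cd28 itself changed at 3 of 23 peaks, 2 of them higher, a gene also named after its values were seen.

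**Figure D2:**
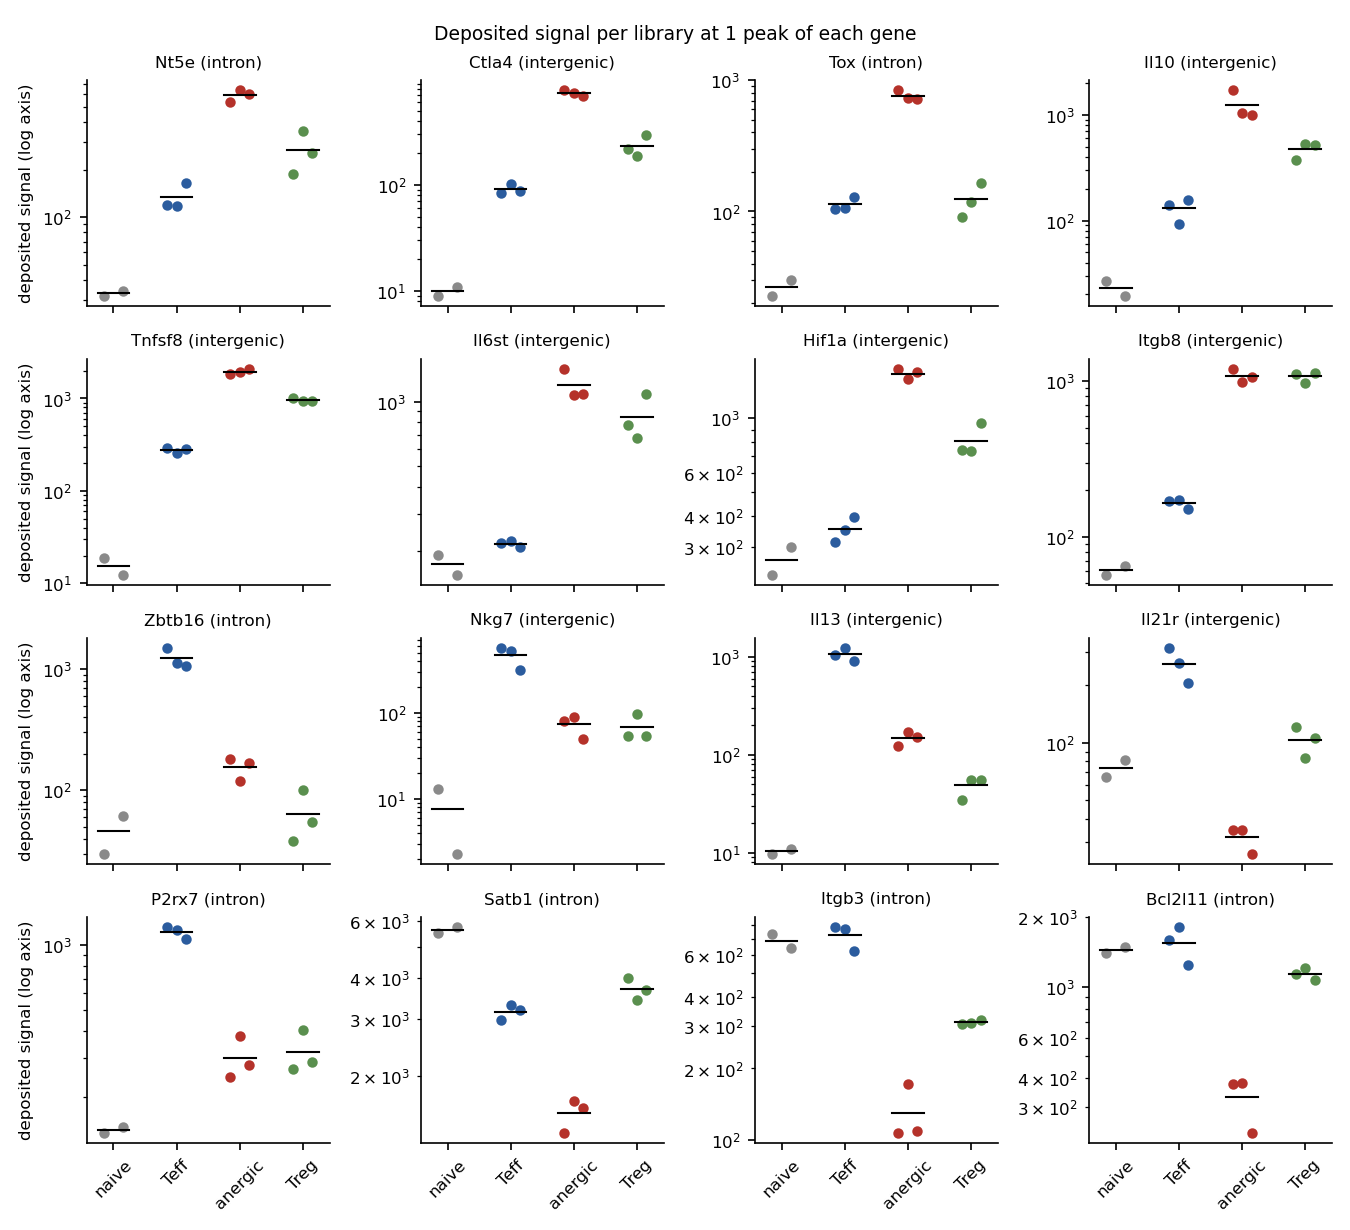
Deposited signal (log axis) in each library at 1 peak of each of 16 genes, by group, with a bar at the group mean. In the upper 2 rows every anergic value lies above every Teff value, for example 687 to 779 against 83.8 to 102 at Ctla4, and in the lower 2 rows every anergic value lies below.

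The genes of the transcription factors TOX and TOX2, which are known from exhausted and follicular T cells, stood out within the list of NR4A, EGR and TOX factors. Tox rose at 21 of 22 peaks and Tox2 at 5 of 7. At an intronic Tox peak 108 kb from the start (chr4:6882555-6883062), anergic libraries read 839, 732 and 723 and Teff libraries 105, 107 and 128 (log2 fold change 2.75 ± 0.23, adjusted p = 9.68e-09). Treg libraries, at 91.2, 117 and 166, lay near the Teff range. The Tox2 5′ UTR peak read 4571, 4354 and 4267 against 1686, 1872 and 2080.1 (log2 fold change 1.23 ± 0.10, adjusted p = 8.26e-09). Egr2, a zinc finger factor induced by TCR signals and linked to anergy, rose at 4 of 8 peaks, with 645, 583 and 582 against 298, 276 and 265 at a peak 37.9 kb upstream (1.11 ± 0.15, adjusted p = 6.47e-06). The list as a whole had 38 of 76 peaks higher (50%) and 7 lower, with a median of 0.44. Without Tox and Tox2 its 6 other genes had 12 higher and 7 lower of 47 peaks, among them Nr4a1 with 0 higher and 2 lower of 8 and Egr3 with 2 higher and 3 lower of 14.

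Genes of the follicular helper (Tfh) programme had 80 of 143 peaks higher (55.9%) and 8 lower, with a median of 0.82. Their summed signal was 65736 to 68789 in the anergic and 40177 to 40873 in the Teff libraries. Tnfsf8, the ligand of CD30, rose at 20 of 21 peaks. At its most certain peak, 74.5 kb upstream (chr4:63935135-63936353), anergic libraries read 1847, 1950.4 and 2071 and Teff libraries 292, 260.2 and 283 (log2 fold change 2.81 ± 0.16, adjusted p = 7.37e-11). The 5′ UTR peak of Angptl2, an angiopoietin-like secreted protein, read 1469, 2046 and 1483 against 349, 282 and 443 (log2 fold change 2.22 ± 0.17, adjusted p = 3.79e-09), and 7 of 7 peaks of this gene rose. Maf, a factor that drives interleukin-10 and interleukin-21, rose at 11 of 22 peaks and fell at 2. Bcl6, the lineage factor of Tfh cells, went the other way, with 1 higher and 3 lower of 9 peaks, and Cxcr5, the follicle homing receptor, rose at 3 of 9. These last 2 genes were named after their values were seen.

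Cytokine genes moved in both directions, with more higher than lower peaks at 8 genes and more lower than higher at 5. Il10, the gene of interleukin-10, which dampens inflammation, was higher at 11 of 13 peaks and read 1718, 1044 and 1006 against 139, 93.3 and 158 at a peak 18.8 kb downstream (chr1:131038040-131039169; log2 fold change 3.25 ± 0.23, adjusted p = 1.35e-09). Il21, a cytokine that acts on B cells and T cells, rose at 6 of 7 peaks and read 589, 646 and 558 against 139, 122 and 168 at a peak 27.1 kb upstream (log2 fold change 2.06 ± 0.21, adjusted p = 1.84e-07). Treg libraries read 100.2, 102 and 74.7 at that Il21 peak, below the Teff values. Il13 and Il4, the cytokines of type 2 responses, fell instead. The Il13 peak 7.71 kb downstream read 123, 172 and 153 in anergic and 1058, 1231 and 905 in Teff libraries (log2 fold change -2.83 ± 0.24, adjusted p = 1.56e-08), and 5 of 7 of its peaks were lower. The Il4 promoter read 31.5, 58.0 and 41.0 against 217, 229.6 and 213 (-2.36 ± 0.42, adjusted p = 0.000152). Over the cytokine and TNF ligand list, 51 of 101 peaks were higher (50.5%) and 15 lower (median 0.63). Of these 51, 31 belonged to Il10 and Tnfsf8. The 2 peaks of Il2, chosen after their values were seen, were not called (median log2 fold change 0.03).

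The list of IL-10 and type 1 regulatory (Tr1) genes, which shares Il10, Maf, Nfil3 and Lag3 with other lists, had 38 of 82 peaks higher (46.3%) and 10 lower. Nfil3, a basic leucine zipper repressor, read 763, 853 and 791 against 110.1, 88.4 and 103 at an intronic peak (chr13:52976273-52977110; log2 fold change 2.99 ± 0.28, adjusted p = 5.18e-08), and 5 of 7 of its peaks rose. Eomes, a T-box factor of Tr1 and cytotoxic cells, had no called peak of 2, and Prdm1, which encodes BLIMP1, rose at 1 of 9 and fell at 3; both were named after their values were seen.

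The Treg signature had 56 of 115 peaks higher (48.7%) and 15 lower, with a median of 0.49. Ikzf2, which encodes the Ikaros family factor HELIOS, rose at 12 of 17 peaks and fell at 1, with 1534, 1517 and 1431 against 348, 358 and 320.02 at an intronic peak (log2 fold change 2.13 ± 0.14, adjusted p = 4.34e-10) and 999, 1073 and 1038 in Treg libraries. Cd83, a surface protein of activated lymphocytes, rose at 15 of 17 peaks and fell at 1, with 723, 754 and 828 against 90.7, 85.1 and 140.01 at a peak 16.1 kb upstream (log2 fold change 2.89 ± 0.20, adjusted p = 7.29e-10). Ctla4, Ikzf2 and Cd83 held 44 of the 56 rises. The defining Treg genes did not move together: Foxp3 rose at its 1 peak, to 96.1 to 184 against 1118 to 1597 in Treg libraries, Il2ra fell on balance, Lrrc32 had 2 higher and 2 lower of 11 peaks, and Ikzf4 and Tnfrsf18 had no called peak. The summed signal of the list was 52042 to 53064 in anergic, 32265 to 32875 in Teff and 61296 to 69938 in Treg libraries. The part of Treg cells in these differences was not tested.

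Genes of Th1 and cytotoxic cells were less accessible in anergic than in Teff cells. Of 118 peaks of 17 genes, 61 were lower (51.7%, against 16.8% of all peaks) and 18 higher, with a median of -0.66. Il12rb2, the inducible chain of the interleukin-12 receptor, fell at 5 of 6 peaks, and its promoter read 108, 66.4 and 56.4 in anergic and 461, 430.3 and 325 in Teff libraries (log2 fold change -2.42 ± 0.24, adjusted p = 1.16e-07). Runx3, a factor of cytotoxic and Th1 cells, fell at 13 of 21 peaks and rose at 1, with 982, 1126 and 1136 against 2114, 2324 and 1972 at a peak 53.7 kb downstream (-0.98 ± 0.11, adjusted p = 7.19e-07). Fasl, which encodes the death ligand, fell at 9 of 19 peaks and rose at 2, with 44.8, 72.7 and 51.7 against 278, 229.6 and 218 at its most certain peak (-2.10 ± 0.24, adjusted p = 5.05e-07). Not all members followed. Ifng had 4 higher and 2 lower of 11 peaks, and Stat4 6 higher and 2 lower of 10, both named after their values were seen.

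Promoters of cytotoxic and chemokine genes were among the largest promoter falls. The Prf1 promoter (perforin) read 63.0, 34.8 and 29.6 against 255, 266 and 203 (log2 fold change -2.55 ± 0.25, adjusted p = 1.15e-07). The Nkg7 promoter (a cytotoxic granule protein) read 81.2, 89.6 and 50.4 against 563, 522 and 315 (-2.64 ± 0.41), and the Ccl5 promoter (a T cell chemokine) 71.3, 58.0 and 65.8 against 356, 344 and 350.02 (-2.41 ± 0.26). Naive libraries read 489 and 447 at the Prf1 promoter, above both groups, but 13.0 and 2.32 at Nkg7 and 13.0 and 15.5 at Ccl5, below both. The 8 largest promoter falls, among called peaks without overlap and above a floor on mean signal, also included Xcl1 (-3.34 ± 0.40), Gcnt2 (-3.18 ± 0.37), Zbtb16 (-2.45 ± 0.29), Il12rb2 and Pde4a, a cAMP phosphodiesterase (-2.30 ± 0.25).

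Markers of CD8, NK and innate-like T cells moved with these genes. Of 36 peaks of 8 such genes, 20 were lower (55.6%) and 1 higher (3 without anergic replicate 2), with a median of -1.13 and a summed signal of 23481 to 28927 in anergic and 28518 to 32673 in Teff libraries. Zbtb16, which encodes PLZF, a lineage factor of innate-like lymphocytes, was lower at 13 of 13 peaks. In an intron 31.8 kb inside the gene (chr9:48803442-48804843) the anergic libraries read 182, 120.2 and 168 and the Teff libraries 1484, 1124 and 1062 (log2 fold change -2.96 ± 0.30, adjusted p = 1.21e-07), against 30.1 and 61.9 in naive and 38.3, 100.05 and 54.4 in Treg libraries. Zbtb16 thus supplied 13 of the 20 falls, and the other 7 genes had 7 lower and 1 higher of 23 peaks. Klrb1c, which encodes NK1.1, fell at 4 of 11 peaks and rose at 1, with 333, 367 and 347 against 1075, 1016 and 813 (-1.46 ± 0.17, adjusted p = 6.85e-07). The Xcl1 promoter, of a chemokine made by NK and CD8 cells, read 34.8, 45.3 and 44.3 against 589.8, 505 and 258 (log2 fold change -3.34 ± 0.40, adjusted p = 1.25e-06). Cd8a, Ncr1, Klrd1 and Gzma had no peak nearest to them, and Eomes, Cd8b1 and Fcer1g no called peak. The part of innate-like T cells in the Teff values was not tested.

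Th2 and Th17 genes were also lower on balance. Of 39 Th2 peaks, 16 were lower (41.0%) and 3 higher (median -0.41). Gata3, the Th2 lineage factor, fell at 4 of 13 peaks and rose at 1, and a peak 76.9 kb downstream read 111, 104 and 88.7 against 638, 654 and 433 (log2 fold change -2.47 ± 0.23, adjusted p = 4.02e-08). Of 42 Th17 peaks, 20 were lower (47.6%) and 6 higher (median -0.48), but 19 of the 20 lay at 2 genes. Il21r, the interleukin-21 receptor, fell at 13 of 23 peaks and rose at 1, with 34.8, 34.8 and 26.2 in anergic and 314, 261 and 207 in Teff libraries at a peak 10.1 kb upstream (chr7:125593157-125593506; log2 fold change -2.98 ± 0.26, adjusted p = 2.07e-08). Rora, which encodes RORα, fell at 6 of 12 peaks and rose at 1, with 801, 1031 and 962 against 3084, 2649 and 2233 (-1.51 ± 0.14, adjusted p = 2.72e-08). Ccr6, a chemokine receptor of Th17 cells, rose at 2 of 2 peaks (3.08 ± 0.45).

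**Figure D3:**
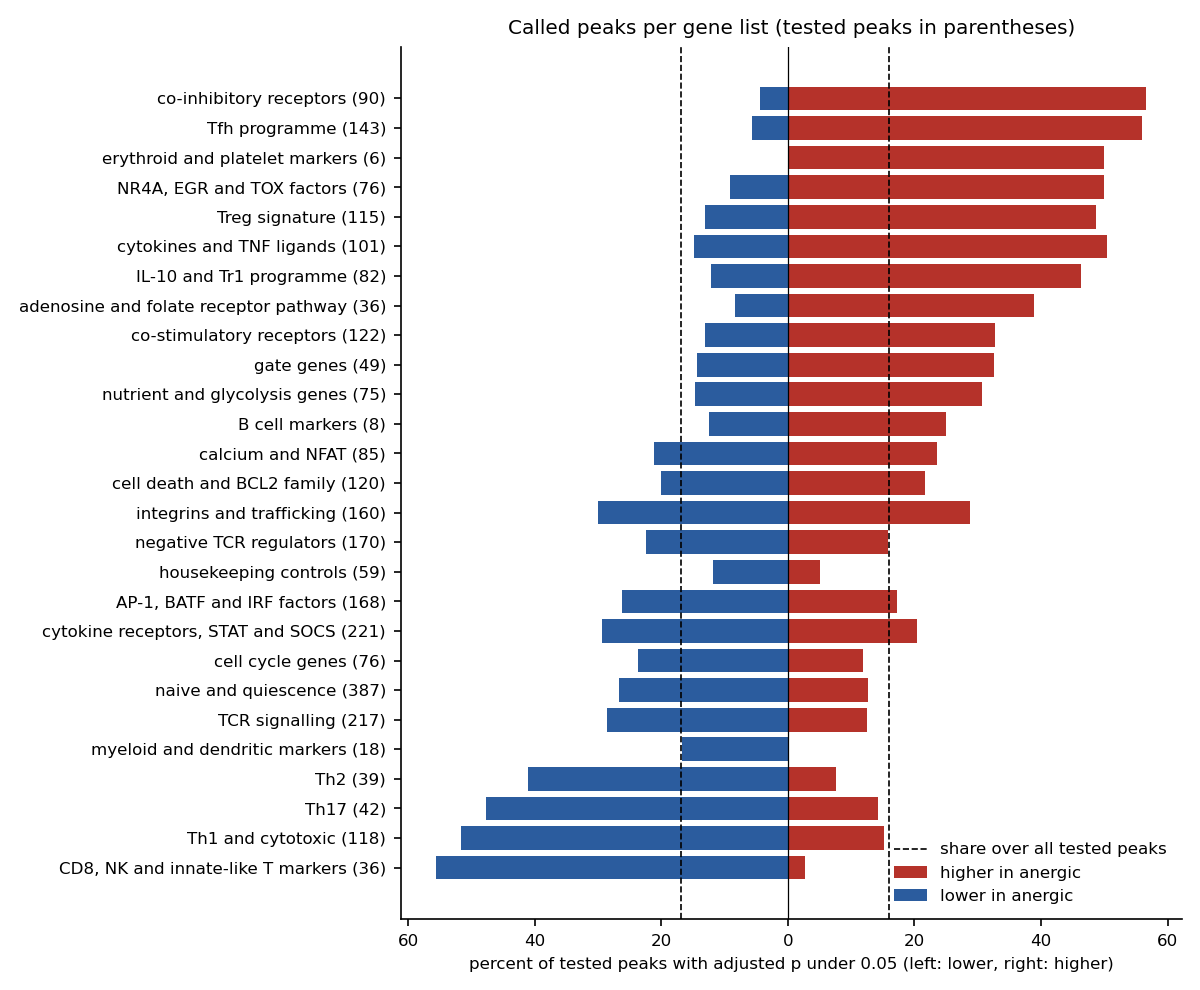
Percent of the tested peaks of each of 27 gene lists that were called higher (red, to the right) or lower (blue, to the left) in anergic cells, ordered by the balance of both; dashed lines mark the 15.9% and 16.8% over all tested peaks. Co-inhibitory receptors and the Tfh programme lie at one end and Th1, cytotoxic and innate-like genes at the other, and the lists of 6 to 18 peaks rest on few peaks.

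The signalling apparatus of the T cell receptor leaned lower. Of 217 peaks of 19 genes, 62 were lower (28.6%) and 27 higher (12.4%), with a median of -0.20. Grap2, which encodes the adaptor GADS, fell at 14 of 24 peaks and rose at none, with 287, 383 and 271 against 615, 812 and 722 at its most certain peak (log2 fold change -1.20 ± 0.15, adjusted p = 3.17e-06). Prkcq, which encodes protein kinase C theta, fell at 11 of 28 and rose at 2, with -1.45 ± 0.20. Cd247, the CD3 zeta chain, had 7 higher and 0 lower of 24 peaks, and Lck, Cd3d, Cd3g and Lat had no called peak; these 5 genes were named after their values were seen.

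Calcium and NFAT genes split, with 20 of 85 peaks higher (23.5%) and 18 lower (21.2%). This balance turned to 17 higher and 18 lower within 100 kb of a start site, to 14 and 15 without Teff replicate 1, to 16 and 20 without anergic replicate 1 and to 15 and 18 without anergic replicate 2. The 5′ UTR peak of Ppp3ca, the catalytic subunit of calcineurin, read 2643, 3241 and 3344 in anergic and 6168, 6923 and 5945 in Teff libraries (log2 fold change -1.05 ± 0.10, adjusted p = 6.69e-08), and 4 of 7 of its peaks fell. Nfatc2 rose at 2 and fell at 5 of 13 peaks, although its most certain difference was a rise, from 721, 820.1 and 727 to 1348, 1577 and 1393 (0.93 ± 0.13, adjusted p = 1.2e-05). Nfatc1 rose at 7 and fell at 3 of 17, and here the most certain difference was a fall (-1.45 ± 0.19). Rcan1, a feedback inhibitor of calcineurin named after its values were seen, rose at 2 of 3 peaks with a median of 2.88.

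Negative regulators of TCR signalling, among them E3 ligases and phosphatases linked to anergy, showed no common rise. Of 170 peaks, 27 were higher (15.9%, also the share over all tested peaks) and 38 lower (22.4%). The median was -0.15 (-0.10 without anergic replicate 1). Dtx1, which encodes DELTEX1, fell at 5 of 7 peaks, with 418, 478 and 425 against 1439, 1421 and 1093 at an intronic peak (log2 fold change -1.57 ± 0.14, adjusted p = 1.99e-08). Pag1, a membrane adaptor that recruits CSK, fell at 6 of 11 (-1.19 ± 0.17), while Ubash3b, a phosphatase of TCR signalling, rose at 7 and fell at 2 of 19, with 492, 344 and 442 against 87.9, 81.8 and 65.0 at an intronic peak (2.43 ± 0.26, adjusted p = 2.33e-07). Cblb, an E3 ligase known from anergic cells and named after its values were seen, rose at 4 of 19 and fell at 1. The count of falls in this list was the least stable of the larger lists, at 23 without anergic replicate 3 and 25 without Teff replicate 2.

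AP-1, BATF and IRF genes had 29 of 168 peaks higher (17.3%, near the 15.9% over all tested peaks) and 44 lower (26.2%). The median was -0.06, and leaving out 1 library gave medians from -0.16 without Teff replicate 1 to -0.0018 without Teff replicate 3. Batf itself rose at 3 of 10 peaks and fell at 1. Over these 10 peaks the log2 fold changes ran from -1.23 to 1.64 with a median of 0.48, so the locus leaned higher. The fall, at the peak upstream of Batf shown above, was from 276, 325 and 270.02 in Teff to 106, 174 and 99.4 in anergic libraries (log2 fold change -1.23 ± 0.23, adjusted p = 0.000262), and Treg libraries read 118, 168 and 100.03. Irf1, an interferon-induced factor, fell at 5 of 10 peaks, with 106, 76.4 and 69.9 against 324, 449 and 398 (-2.21 ± 0.23, adjusted p = 1.87e-07). Bach2, a repressor of effector genes, had the most mixed locus, and is described below. Jun, Junb and Fos had 0 higher and 4 lower of 20 peaks together and Fosl2, Jund and Fosb no called peak; these 6 were named after their values were seen.

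Naive and quiescence genes had 103 of 387 peaks lower (26.6%) and 49 higher (12.7%), with a median of -0.21. More peaks fell than rose at 11 genes and more rose than fell at 4. Summed signal overlapped, at 185639 to 191143 in anergic and 190090 to 198517 in Teff libraries. Bach2 and Foxp1, also in this list, changed in both directions and are described below. Satb1, a chromatin organiser of thymocytes and naive T cells, fell at 19 of 21 peaks. Its promoter peak read 1333, 1675 and 1586 in anergic, 2975, 3300.3 and 3189 in Teff, 4014, 3414 and 3678 in Treg and 5533 and 5756 in naive libraries (log2 fold change -1.05 ± 0.10, adjusted p = 7.54e-08), so the anergic values were the lowest of the 4 groups. Lef1, whose product is related to TCF1, fell at 19 of 49 peaks and rose at 1, with 156, 122 and 139 against 921, 761 and 588 at a peak 52.8 kb upstream (log2 fold change -2.42 ± 0.17, adjusted p = 9.86e-10).

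Integrin and trafficking genes moved in both directions, gene by gene, with 46 of 160 peaks higher (28.8%) and 48 lower (30%). Counting only peaks within 100 kb of a start site left 29 higher and 48 lower. Itgav, the alpha V integrin chain, rose at 8 of 8 peaks and Itgb8, its beta 8 partner in the activation of TGF beta, at 2 of 2. The Itgb8 promoter read 1195, 993 and 1069.98 in anergic, 170.3, 173 and 152 in Teff and 1109, 981 and 1129 in Treg libraries (log2 fold change 2.71 ± 0.15, adjusted p = 5.98e-11), so anergic and Treg values overlapped there. Itgb3, the beta 3 partner of the same alpha chain, fell at 9 of 10 peaks and rose at none. At an intronic Itgb3 peak 56.2 kb from the start (chr11:104663864-104664443) anergic libraries read 108, 173 and 109 and Teff libraries 782, 771 and 622 (log2 fold change -2.50 ± 0.18, adjusted p = 1.28e-09), below the 309, 311 and 318 of Treg and the 728 and 638 of naive libraries. Selplg, which encodes PSGL-1, the selectin ligand, fell at 10 of 12 peaks (-2.11 ± 0.16 at a peak 11.9 kb upstream). Cxcr4, the receptor for CXCL12, rose at 13 of 23 and fell at none, with 1479, 1250.4 and 1284 against 534, 461 and 473 at a peak 240 kb upstream (1.45 ± 0.12, adjusted p = 1.46e-08). P2rx7, an ATP-gated channel, fell at 7 of 7 peaks, with 245, 382 and 281 against 1211, 1178 and 1072 at an intronic peak 1.57 kb from the start (log2 fold change -1.95 ± 0.18, adjusted p = 3.82e-08). Of further members named after their values were seen, Itga4 rose at 8 of 11 peaks and Itgb1 at 10 of 13 with 2 lower, while Itgb7 fell at 4 of 5 and Cxcr6 at 3 of 3.

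Cytokine receptors, STAT and SOCS genes had 65 of 221 peaks lower (29.4%) and 45 higher (20.4%). Il6st, the shared gp130 chain of interleukin-6 family receptors, rose at 13 of 25 and fell at 2, with 1418, 1074 and 1086 against 218, 224 and 210.01 at a peak 47 kb downstream (log2 fold change 2.44 ± 0.17, adjusted p = 9.51e-10). Ifngr1, the ligand-binding chain of the interferon gamma receptor, fell at 6 of 7 peaks, with 68.0, 63.3 and 57.1 against 219, 279.98 and 252 at an intronic peak (-1.98 ± 0.21, adjusted p = 2.71e-07). Named after their values were seen, Il6ra rose at 5 of 12 and fell at none, while Il2rb (3 of 5), Il4ra (5 of 7), Il18r1 (3 of 5) and Il7r (4 of 12) fell and rose at none.

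Cell death genes were balanced, with 26 of 120 peaks higher (21.7%) and 24 lower (20%). Bcl2l11, which encodes BIM, held 5 higher and 5 lower of 14 peaks, and the directions were partly arranged along the locus. All 5 rises lay 8.21 to 65.0 kb upstream of the start, within introns of the neighbouring gene Acoxl, with log2 fold changes of 0.85 to 2.27. Of the 5 falls, 4 lay at or downstream of the start site and 1 upstream of it. They lay up to 62.8 kb from the start, with -0.73 to -2.24. The largest fall, in an intron 25.8 kb from the start (chr2:128152778-128154012; central sequence shown above), was from 1598, 1810.3 and 1237 in Teff to 378, 381 and 232 in anergic libraries (log2 fold change -2.24 ± 0.17, adjusted p = 2.08e-09). Treg libraries read 1135, 1198 and 1065 and naive libraries 1393 and 1486 there, so the anergic group stood alone below the other 3. Pmaip1, which encodes the BH3-only protein NOXA, rose at 6 of 8 peaks (196, 185 and 144 against 36.0, 37.17 and 61.7; 1.97 ± 0.27, adjusted p = 5.59e-06). Tnfrsf10b, the TRAIL receptor, fell at 4 of 4 (-1.03 ± 0.17). Bcl2 had 1 higher of 5 peaks, and Bax, Bak1, Bid and Bad no called peak, all named after their values were seen.

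**Figure D4:**
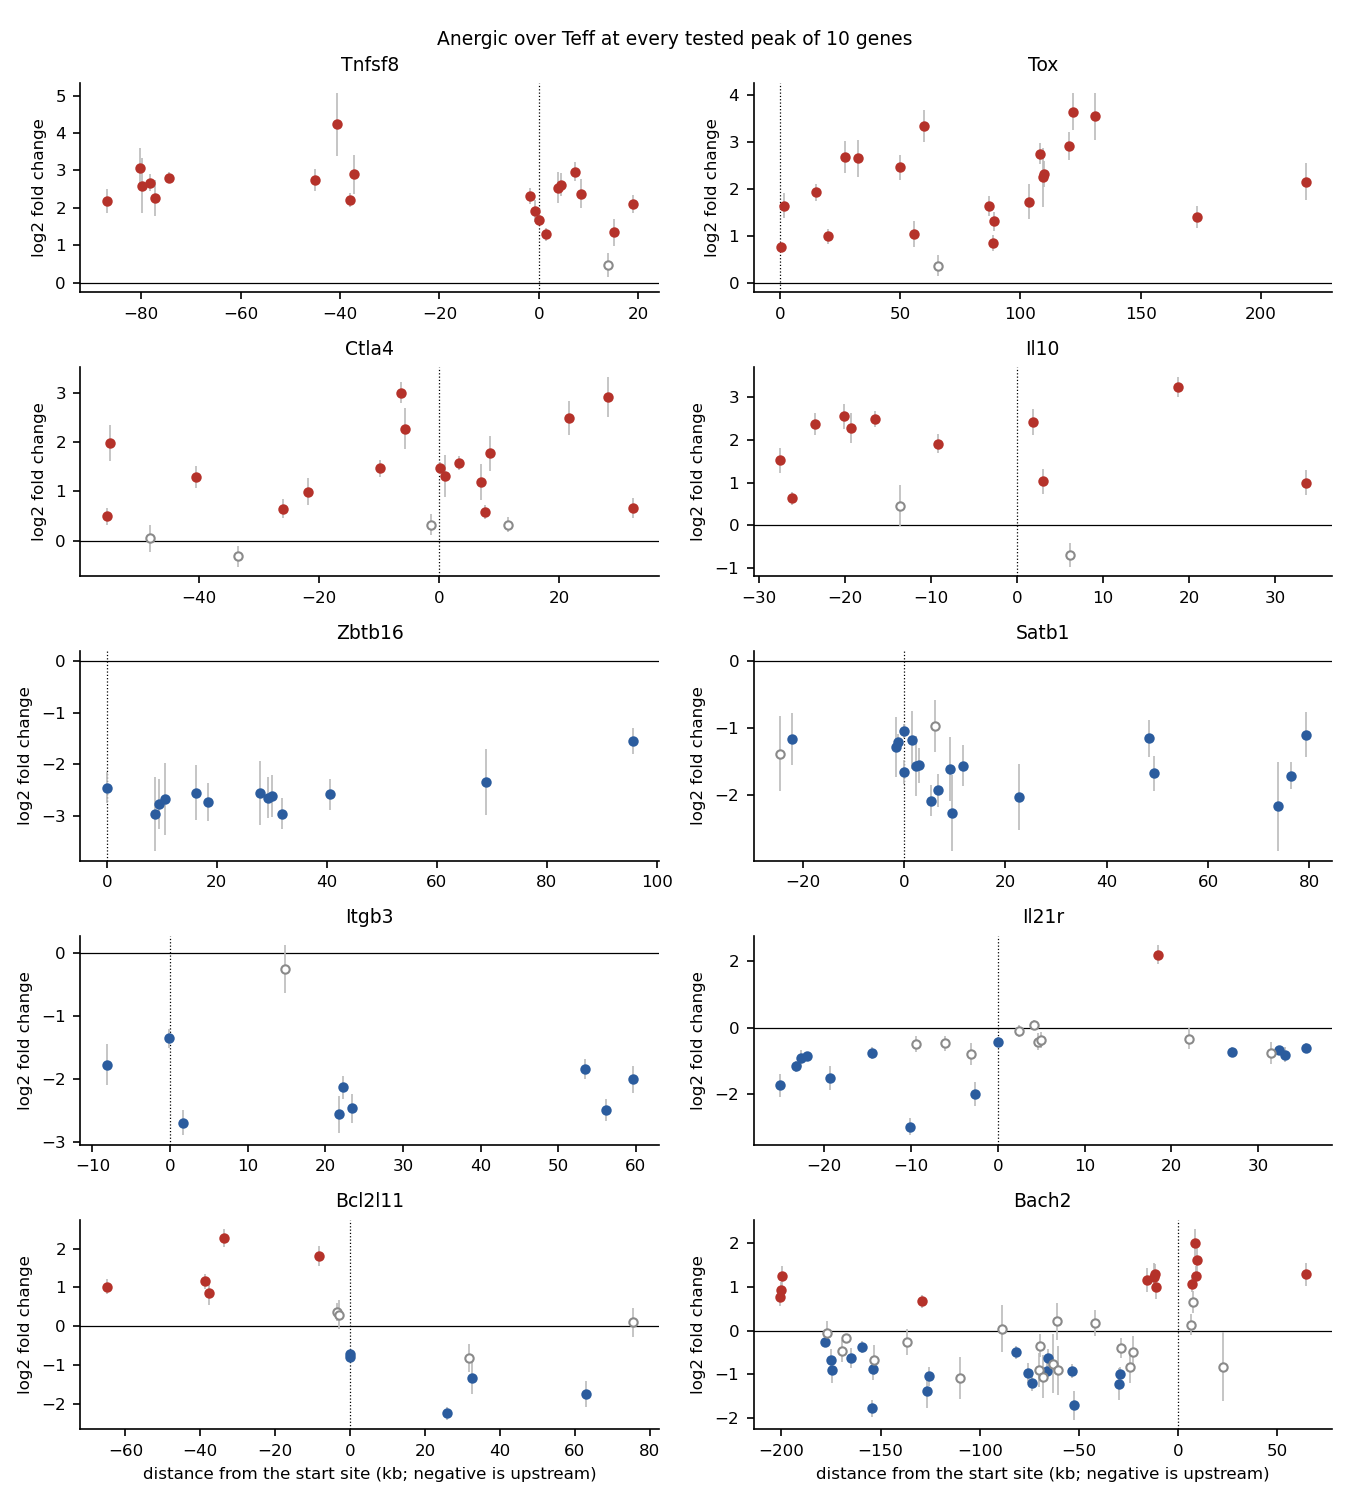
Log2 fold change of anergic over Teff (y axis, bars 1 standard error) at every tested peak of 10 genes against distance from the start site in kb (x axis, negative upstream). Filled red and blue points are called higher and lower and open grey points not called. Tnfsf8, Tox, Ctla4 and Il10 hold only red calls, Zbtb16, Satb1 and Itgb3 only blue, and Il21r 13 blue and 1 red. Bcl2l11 and Bach2 hold both. All 5 Bcl2l11 rises lie upstream, and of its 5 falls 4 lie at or downstream of the start site and 1 upstream.

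Among nutrient and glycolysis genes, 23 of 75 peaks were higher (30.7%) and 11 lower (14.7%). The lower peaks numbered 7 without Teff replicate 1 or 2. Hif1a, the oxygen-responsive factor, rose at 12 of 15 peaks and held 12 of the 23 rises. A peak 13 kb upstream of Hif1a read 1583, 1438 and 1539 against 314, 351 and 395 (log2 fold change 2.11 ± 0.15, adjusted p = 9.51e-10). Ldha, lactate dehydrogenase, fell at 3 of 5 (-0.64 ± 0.15) and Pdk1, which inhibits pyruvate dehydrogenase, at 3 of 7 (-0.86 ± 0.22). In the adenosine and folate receptor list, which holds 2 gate genes, 14 of 36 peaks were higher (38.9%) and 3 lower (8.33%). Dpp4, which encodes the adenosine deaminase binding protein CD26, rose at 2 of 6 (1.25 ± 0.19). Cell cycle genes had 9 higher (11.8%) and 18 lower (23.7%) of 76 peaks. Rbl2, the pocket protein p130, fell at 5 of 7, with 53.1, 26.9 and 19.5 against 294, 348 and 312 at an intronic peak (log2 fold change -3.34 ± 0.44, adjusted p = 3.73e-06). Ccnd3, cyclin D3, fell at 9 of 22 (-1.09 ± 0.12) and E2f2, a cell cycle factor, rose at 3 of 9, its promoter reading 3187, 3093 and 3061 against 1261, 1388 and 1392 (1.21 ± 0.09, adjusted p = 4.28e-09).

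Markers of other cell types had few peaks. Ms4a1, Cd79a and Pax5 of B cells, Lyz2, Csf1r and Cd14 of myeloid cells and the globin genes had no peak nearest to them. Of 8 B cell peaks 2 were higher (25%), both of Cd74 (1 without Teff replicate 3, anergic replicate 1 or anergic replicate 3), and 1 lower (12.5%), at Cd79b. Summed signal over the B cell peaks was 1217 to 1535 in anergic, 814 to 946 in Teff and 1980 to 2256 in Treg libraries. Of 18 myeloid peaks 3 were lower (16.7%) and 0 higher, and of 6 erythroid and platelet peaks 3 were higher (50%), at Alas2 and Itga2b. Housekeeping genes had 3 higher (5.08%) and 7 lower (11.9%) of 59 peaks, 5 of the falls at distal peaks of Actb. The housekeeping rises numbered 0 without Teff replicate 1 and 1 without Teff replicate 2 or anergic replicate 3, and the falls 4 without Teff replicate 2.

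At some genes every tested peak changed in 1 direction. Of 14233 genes with a tested peak, 5879 had a called peak, 2477 of them higher peaks only, 2509 lower only and 893 both. Among the 1473 genes with at least 6 tested peaks, 13 had every peak higher and 11 every peak lower, of which 3 and 4 are predicted genes that are not named here. Fam43a had the most peaks of those with every peak higher, 14 of 14, spread over 172 kb. Its most certain peak, 170 kb downstream of the start (chr16:30769039-30769977), read 1698, 1815 and 1427 in anergic and 406, 325 and 318 in Teff libraries (log2 fold change 2.23 ± 0.14, adjusted p = 3.72e-10), with 291, 304 and 309 in Treg libraries. Tshz2, a zinc finger homeobox gene, rose at 10 of 10 peaks, and the peak whose sequence is shown above read 1504, 974 and 1128 against 123, 153 and 160.01 (log2 fold change 3.02 ± 0.20, adjusted p = 6.2e-10). Gpm6b, a membrane glycoprotein (8 of 8), Dusp14, a phosphatase that acts on MAP kinase signalling (7 of 7), Klf12, a Krüppel-like factor (6 of 6), Slc22a15, a solute carrier (6 of 6), Synpo, an actin-associated protein (6 of 6), and Zc3h12d, an RNA-binding regulator of cytokine transcripts (6 of 6), were the other named genes with every peak higher, beside Angptl2 and Itgav. The Dusp14 peak 24.9 kb downstream of its start, in the 3′ UTR of the neighbouring gene Synrg, read 869, 541 and 584 against 31.15, 31.4 and 60.004 (log2 fold change 4.03 ± 0.35, adjusted p = 1.7e-08), and Treg libraries, at 49.6, 68.1 and 58.2, overlapped the Teff values.

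On the lower side Zbtb16 led, followed by Chsy1, a chondroitin sulfate synthase (11 of 11), and Pik3r5, the p101 regulatory subunit of PI3 kinase gamma (9 of 9). The intronic Pik3r5 peak 3.57 kb from the start read 124, 188 and 148 in anergic and 999.6, 869 and 692 in Teff libraries (log2 fold change -2.47 ± 0.19, adjusted p = 3.23e-09), and 646 and 584 in naive libraries. Chsy1 read 133, 79.6 and 59.8 against 541, 566 and 395 at a peak 87.8 kb downstream (log2 fold change -2.51 ± 0.27, adjusted p = 2.93e-07), with naive and Treg values from 61.2 to 123 beside the anergic ones. P2rx7, Atp8b4, a lipid flippase (6 of 6), Mctp2, a calcium-binding membrane protein (6 of 6), and the microRNA gene Mir5113 within Tnrc6b (6 of 6) were the other named genes with every peak lower. Vps37b, an ESCRT-I subunit (11 of 12), Sh3pxd2a, a podosome scaffold (10 of 11), and Satb1 followed.

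Read along the chromosome, called peaks of 1 direction followed each other in runs, with gaps of at most 50 kb and no tested peak left out between them that was called otherwise or not called. Runs of at least 5 peaks numbered 105 upward (744 peaks) and 112 downward (719 peaks), and runs of at least 8 numbered 29 and 23. By number of peaks the longest upward run was at Tnfsf8, with 18 peaks over 95.8 kb, all separated without overlap. Its summed signal was 10115, 10097 and 10791 in anergic, 2008, 1945 and 2605 in Teff, 4486, 4877 and 4542 in Treg and 999 and 1085 in naive libraries. Next came 16 peaks over 49.8 kb at Cd83, 14 over 137 kb at Mir378b within Msi2, a gene of an RNA-binding protein, and 14 over 122 kb at Rnf19a and Ankrd46. In length, a run of 11 rising peaks at Ikzf2 reached further, over 212 kb. By number of peaks the longest downward run held 15 peaks over 125 kb from Nnmt to Zbtb16, with a summed signal of 1306, 1150 and 975 in anergic and 8181, 7125 and 5744 in Teff libraries. It was followed by 13 peaks over 106 kb up to Ifngr1, 12 over 87.9 kb at Chsy1 and 12 over 60.6 kb at Vps37b and Abcb9.

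The 8 largest promoter rises were picked by the same terms as the falls. The Celf3 promoter, of an RNA-binding splicing factor of neurons, read 379.7, 312 and 320.4 in anergic and 20.1, 26.4 and 23.3 in Teff libraries (log2 fold change 3.80 ± 0.29, adjusted p = 3.64e-09). C2cd4b (3.64 ± 0.52), Noxa1, a NADPH oxidase activator (3.51 ± 0.33), Lratd1 (2.87 ± 0.29), Kcnk10, a potassium channel (2.80 ± 0.26), Hmgn3, a nucleosome-binding protein (2.80 ± 0.24), Tshz2 (2.77 ± 0.63) and Itgb8 were the other 7 of the 8 largest. The Noxa1 promoter read 264, 215 and 220.3 in anergic, 11.1, 20.6 and 31.7 in Teff and 233, 202 and 243 in Treg libraries. The Lratd1 promoter read 663, 436 and 513 in anergic, 65.8, 55.3 and 100.01 in Teff and 56.3, 74.5 and 48.1 in Treg libraries. Treg values thus stood with the anergic group at Noxa1 and with the Teff group at Lratd1.

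Some peaks went from near background to above the median. At 112 peaks all 3 Teff libraries lay under the 10th percentile of their own library (50.4 to 60.004) and all 3 anergic libraries above their median (210 to 225), and at 38 peaks the reverse held. The largest such rise lay 339 kb from Dhx35 (chr2:159134019-159134554), with 837, 980.5 and 1015 in anergic and 17.3, 33.9 and 33.3 in Teff libraries (log2 fold change 5.07 ± 0.30, adjusted p = 1.54e-10). The Hhat peak, whose sequence heads the first set, read 312, 309 and 311 against 3.46, 15.7 and 11.7 (log2 fold change 4.99 ± 0.61, adjusted p = 1.61e-06), and 15.8, 40.4 and 10.1 in Treg libraries. Peaks in introns of Csgalnact1 (4.86 ± 0.50), Tnr (4.67 ± 0.28), Mir378b within Msi2 (4.61 ± 0.39) and Itgav (4.40 ± 0.30), and near Akap7 (4.55 ± 0.40) and Eea1 (4.42 ± 0.63), were the others of the 8 largest. Eea1, an early endosome tether, rose at 15 of 16 peaks.

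In the other direction, the largest fall was at an intronic peak of Gramd3, with 31.5, 17.9 and 11.4 in anergic and 579, 581 and 408 in Teff libraries (log2 fold change -4.71 ± 0.41, adjusted p = 1.91e-08), and 13 of 15 peaks of this gene fell. The peak near Calca, the gene of calcitonin and CGRP, read 26.5, 23.2 and 24.9 against 618, 505 and 317 (log2 fold change -4.17 ± 0.45, adjusted p = 2.81e-07). The peaks shown above for Calca and Gcnt2 (-3.84 ± 0.49) were both near background in naive libraries, at 1.62 and 0.77 and 4.87 and 2.32. The remaining 5 lay near Mirlet7a-1 (-4.09 ± 0.43), Srbd1 (-4.08 ± 0.62), Wnt11 (-4.05 ± 0.40), Fxyd3 (-3.72 ± 0.30) and Pgam1 (-3.53 ± 0.31).

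The levels of the other groups at the strongly changed peaks differed by direction. Of the 1469 peaks at least 4-fold higher in anergic cells, both naive libraries lay under their own 10th percentile at 1239 (84.3%) and all 3 Treg libraries did so at 340 (23.1%). Of the 639 peaks at least 4-fold lower, both naive libraries lay under their 10th percentile at 211 (33.0%) and above their median at 99 (15.5%), and the Treg libraries lay under theirs at 222 (34.7%). Median signal at the 1469 rises was 201 to 232 in the anergic, 27.7 to 45.003 in the Teff, 77.7 to 93.7 in the Treg and 8.52 to 8.94 in the naive libraries. At the 639 falls it was 31.6 to 51.4 in the anergic, 202 to 262 in the Teff, 54.4 to 74.5 in the Treg and 61.9 to 66.6 in the naive libraries. The fold changes that chose the peaks above are of anergic over Teff values, while the naive and Treg libraries entered the choice through the spread that the fit shares over all 11 libraries.

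Several loci changed in both directions. Bach2 had 13 higher and 18 lower of 51 peaks. Of its rises, 8 lay within 16 kb of a start site and 3 about 200 kb upstream, while all 18 falls lay 29.4 to 178 kb upstream. The most certain fall was from 314, 211 and 290.02 to 82.9, 87.5 and 63.1 (-1.78 ± 0.20, adjusted p = 5.17e-07). Foxp1, a quiescence factor, had 13 higher and 15 lower of 56 peaks, with 620.1, 733 and 674 against 157, 180.04 and 252 at its most certain peak (1.80 ± 0.18, adjusted p = 1.16e-07). Runx1, a factor that binds the RUNX letters marked above, had 14 lower and 5 higher of 32 peaks. The most certain Runx1 difference was a rise 110 kb upstream, from 20.1, 24.8 and 15.001 in Teff to 179, 220.3 and 243 in anergic libraries (log2 fold change 3.38 ± 0.30, adjusted p = 2.73e-08), where naive libraries read 194 and 177. Bcl11b, a T lineage factor (5 higher and 11 lower of 39), Ptk2b, which encodes the kinase PYK2 (6 and 7 of 23), and the neighbourhood of the ribosomal protein gene Rplp1 (16 and 5 of 34) were the other 3.

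The letters of 20 motifs were searched, and those of some differed between risen and fallen distal peaks. In the central 200 bases, searched on both strands, the AP-1 letters TGANTCA were present in 26.3% of 5119 distal peaks higher in anergic cells, 6.52% of 5442 lower peaks and 8.70% of 15103 peaks not called. In windows 400 to 600 bases from the centre the shares were 6.90%, 5.49% and 5.93%, and 3.61% of promoter peaks held the letters. The NFAT core TGGAAA, which is short and common, was in 31.7% of higher, 11.7% of lower and 15.3% of uncalled distal peaks (18.6%, 16.4% and 17.0% in the outer windows). The NF-kB consensus was in 8.67%, 3.71% and 4.45%. The BATF-IRF composites (TGANTCA with GAAA at the spacings searched, all of which contain the AP-1 letters) were in 2.72% of higher, 0.221% of lower and 0.417% of uncalled peaks. Other letters were more frequent in fallen peaks. RUNX (TGTGGTT) was in 18.0% of lower, 9.10% of higher and 10.0% of uncalled peaks, and ETS (AGGAAGT) in 23.3%, 10.0% and 13.3%. T-box (AGGTGTGA) was in 3.05% of lower, 1.21% of higher and 1.07% of uncalled peaks. The GATA factor letters (AGATAAG or TGATAAG) were in 6.89%, 4.41% and 3.97%. Other motifs differed little: IRF letters were in 4.73% of higher, 3.45% of lower and 3.83% of uncalled peaks. STAT letters were in 6.54%, 5.81% and 5.48%, and FOX letters in 3.57%, 3.58% and 3.28%. Among distal peaks with AP-1 letters, 47.5% of 120 with IRF letters and 44.5% of 2893 without them were higher. Some of the motifs searched are not reported here. Single peaks can go against these shares, as the fallen Batf peak with its AP-1 letters does. The core of the CTCF motif was in 6.51% of higher, 4.37% of lower and 21.0% of uncalled distal peaks. A match describes the sequence and does not show that a factor was bound.

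**Figure D5:**
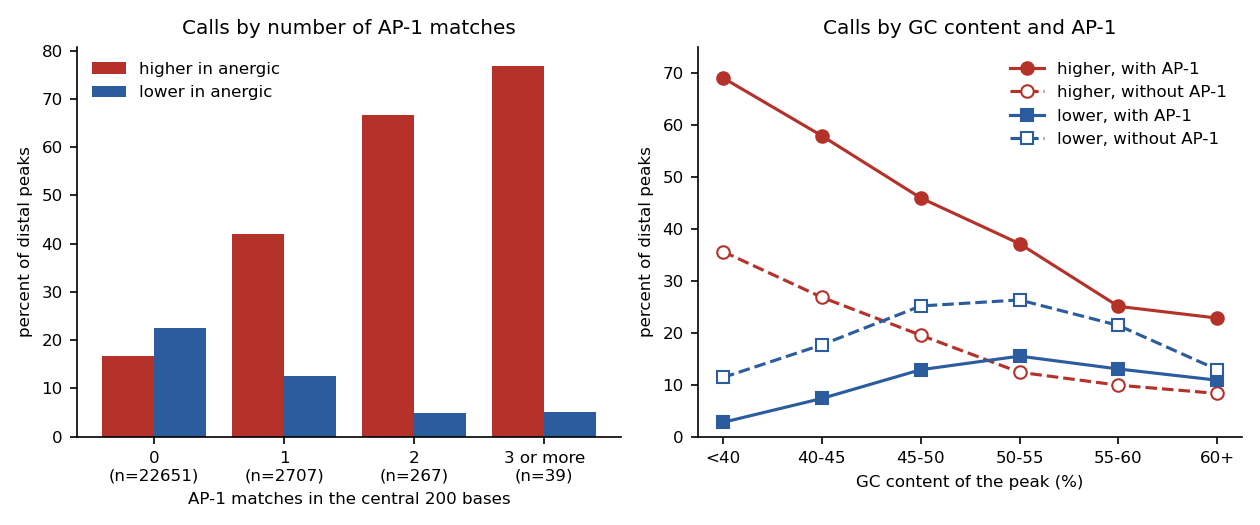
Left, the percent of distal peaks called higher (red) or lower (blue) by the number of AP-1 matches in the central 200 bases, with the number of peaks under each pair; higher calls go from 16.7% with none to 76.9% with 3 or more. Right, the same percentages by GC content of the peak, for peaks with (filled) and without (open) an AP-1 match; the filled red points lie above the open ones in each of the 6 GC classes.

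Seen from the sequence, higher calls made up 16.7% of 22651 distal peaks without an AP-1 match, 42.0% of 2707 with 1, 66.7% of 267 with 2 and 76.9% of 39 with 3 or more. Of 616 distal peaks with both AP-1 letters and an NFAT core, as in the Hhat and Tshz2 sequences above, 389 were higher (63.1%) and 5.68% lower. Of 18698 with neither, 13.6% were higher and 24.0% lower. Of 62 distal peaks with both RUNX and T-box letters, 37 were lower (59.7%) and 7 higher. GC content moved with the direction: 42.1% of distal peaks under 40% GC were higher and 9.72% lower, against 9.04% and 12.8% at 60% GC or more. In the distal peaks under 40% GC the median deviation of each library from the mean of the 6 was 0.27 to 0.31 (log2) in anergic and -0.31 to -0.20 in Teff libraries, and the part of GC content in the direction of the calls was not tested. Within each of 6 GC classes, peaks with an AP-1 match were higher more often than those without, from 69.1% against 35.6% under 40% GC to 22.8% against 8.32% at 60% or more.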

How the data were processed

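Per the series' design text and the submitters' processing notes, reads were trimmed with Trimmomatic 0.38.1, aligned to GRCm38/mm10 with Bowtie2 2.3.3.1 and sorted with SAMtools 1.13. Peaks were called per sample with Genrich 0.5, with PCR duplicates removed, transposase cut sites adjusted and mitochondrial and blacklisted reads left out, and DiffBind 2.10.0 gave 38509 consensus peaks, per the same text. The authors deposited 1 signal value per peak and library. Dividing each library's deposited signal by its smallest value gave whole numbers within 0.01 for 100% of values, so the smallest value was read as 1 read; the method behind the library factors is not given in the sources used here.

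Computed here: peaks were annotated with RefSeq for GRCm38 (45756 transcripts), with starts read as 1-based because every width equals end minus start plus 1. limma 3.58.1 (trend, R 4.3.3) was fitted to log2(value + 1) of all 11 libraries with group as the only term, after filterByExpr of edgeR 4.0.16 on recovered reads (16 peaks removed), and p-values were adjusted by Benjamini-Hochberg over 38493 peaks. edgeR's quasi-likelihood test and DESeq2 1.42.0 on recovered reads were alternatives, with other scalings, filters, pseudocounts (0.5 and 8), a replicate block and leaving out each replicate. The fit was tested on simulated data.

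The 27 gene lists were written from general knowledge. Genes were named by rule: gate and title genes, genes with at least 6 peaks and the most one-sided calls (10 each way), the 8 largest promoter changes each way, up to 3 genes per list, 6 loci with calls both ways, the 4 longest runs each way and the 8 largest switches each way. Genes outside the rule are marked as named or chosen after their values were seen, and predicted genes are not named. Some genes that the rule picks are not reported here. The comparison, its members and the lists were chosen with earlier results of these data known. A list's count is to be read beside the shares over all tested peaks, 15.9% higher and 16.8% lower. It is also to be read beside those over distal peaks alone, 19.9% higher and 21.2% lower, as lists were not split by position. Lists share genes, and peaks of 1 gene are not independent.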

Additional observations from a re-analysis of the deposited data

How the results depend on the processing

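No called peak reversed direction in any of the 17 alternatives. The alternatives kept 80.4% to 99.8% of the 12612 calls and made 10285 to 13517 calls in all, and leaving out 1 library made 10285 to 12060. edgeR made 12830 calls, DESeq2 13194 and quantile normalization 13517. Scaling to the total over peaks gave 5869 higher and 6847 lower calls and moved the median of all peaks by -0.03 (log2). Of the fold changes of named peaks, 2189 of 2193 values kept their direction and their side of the threshold. Most of these peaks were picked by small adjusted p or large change in these same libraries. Their stability was thus largely fixed by the choice and says little about other peaks. Over all calls, leaving out 1 library kept 80.4% to 88.4%. The exceptions among the named peaks included Spi1 without Teff replicate 3 (-0.79, adjusted p = 0.0577 by limma) and without anergic replicate 3 (-0.78, 0.0630).

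The counts that moved by over 1.5 times were in small or mixed lists. Lower peaks of negative TCR regulators numbered 23 to 38 and those of nutrient and glycolysis genes 7 to 10 on leaving out 1 library. Higher integrin peaks fell from 46 to 29 within 100 kb of a start site. B cell markers had 1 higher peak in place of 2 with DESeq2, edgeR, the 6 libraries alone or scaling to the total. On leaving out 1 library, B cell markers had 1 to 2 higher peaks, CD8, NK and innate-like T markers 0 to 3, and housekeeping controls 0 to 4 higher and 4 to 8 lower. The balance of the calcium and NFAT list turned to more lower than higher peaks within 100 kb (17 and 18) and without Teff replicate 1 (14 and 15), anergic replicate 1 (16 and 20) or anergic replicate 2 (15 and 18). That of the cell death list, 26 higher and 24 lower, turned to 23 and 25 without Teff replicate 1, anergic replicate 1 or anergic replicate 2 and to 22 and 25 without anergic replicate 3. Taking the 20th percentile in place of the 10th gave 272 opened and 116 closed peaks. The cause of these shifts was not tested.

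Deviations from the group mean were correlated across peaks between anergic and Teff libraries. For replicate numbers 1, 2 and 3 this gave r = -0.11, 0.15 and -0.01, and for unlike numbers -0.22 to 0.19. With 3 libraries a group these values cannot settle whether the numbers mark pairs. The labels do not say so, and the numbers were not taken as pairs. With the replicate number as a block, limma called 13235 peaks, 6392 higher and 6843 lower. The shallowest libraries, Teff replicate 3 and anergic replicate 1, limit precision at weak peaks, and 3 libraries a group give a coarse estimate of the spread.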
